A study of Homo sapiens with 4 samples.

Results

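The 10 genes described here encode receptors (NOTCH1, NOTCH2, NOTCH3 and NOTCH4), ligands (JAG1, JAG2 and DLL1) and transcriptional targets (HES1, HES4 and HEY1) of Notch signaling. They were taken by name from the 62700 genes of the GENCODE annotation of hg38. Every N6-methyladenosine (m6A) peak with its summit between the start and the end of such a gene was collected, which gave 24 of the 24607 peaks of replicate 1 and 13 of the 19318 peaks of replicate 2. The peaks came from meRIP-seq of OE-19 cells, grown with no treatment named in the labels, an established cell line of adenocarcinoma of the esophagogastric junction (AEG). In this assay an antibody against m6A pulls down methylated RNA fragments, which are then sequenced. The series held 4 samples, 2 of the m6A immunoprecipitation (IP) and 2 of input RNA, and peaks were listed separately for each IP sample. Peaks of the input samples were not analysed here, no second condition or cell line was compared, and the study calls the IP samples biological replicates without saying whether they were separate cultures.

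Notch receptors are single-pass membrane proteins that are activated by ligands on a neighboring cell. Binding leads to cleavage of the receptor, first by an ADAM protease and then by γ-secretase, and the released intracellular domain enters the nucleus and, with RBPJ and a Mastermind protein, switches on targets such as the HES and HEY repressors. The pathway controls cell fate in many tissues, among them the epithelium of the gut. m6A is written on mRNA largely in the consensus DRACH (D stands for A, G or T, while R means A or G and H means A, C or T), and it is known to be frequent in long exons and around stop codons.

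The lists differed in length and in where their peaks lay, which bears on every count below. Exonic summits numbered 20134 in replicate 1 and 13113 in replicate 2. An exonic peak of replicate 2 nearly always had a partner in replicate 1, whereas many exonic peaks of replicate 1 had none in replicate 2. Read numbers are not part of the lists, and the sequencing depth is therefore unknown. Fold enrichment, the unit of all peak heights here, is the ratio of the pileup at the summit to the local background of the peak caller, and it measures neither the methylated share of an mRNA nor its expression. With 1 group of 2 lists, no test was possible and all values are descriptions. The peaks gave no check of the epithelial label. An exonic summit was found in both lists for 2 of 8 epithelial markers (CDH1 and CLDN4), a share below the 31.9% of all protein-coding genes, in replicate 1 alone for VIL1 and in neither list for the other 5. Of 8 blood, endothelial and stromal markers, 0 had a summit in both lists, and COL1A1 had one in replicate 1 (fold enrichment 3.11). A missing peak does not show that a marker was not expressed.

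The coding stretch under the NOTCH1 summit in the last exon is shown first, beside the stretches of NOTCH2 and NOTCH3 that aligned with it in protein sequence, because these receptors share the peak position to different extents. Sequences are from hg38, on the strand of the gene and 5′ to 3′, and all 3 genes lie on the minus strand. Capitals mark GGAC and DRACH, the motifs searched on that strand. The stretches are chr9:136497109-136497168 (NOTCH1, codons 2191 to 2210), chr1:119916239-119916298 (NOTCH2, codons 2142 to 2161) and chr19:15161295-15161351 (NOTCH3, codons 2093 to 2111).
NOTCH1: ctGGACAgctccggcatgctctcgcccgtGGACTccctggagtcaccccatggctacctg
NOTCH2: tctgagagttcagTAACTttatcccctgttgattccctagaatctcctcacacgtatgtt
NOTCH3: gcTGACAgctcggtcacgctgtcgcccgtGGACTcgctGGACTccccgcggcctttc

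NOTCH1 and NOTCH3 had the same 14 letters, tcgcccgtGGACTc, at the aligned place, and each held 2 GGAC in the stretch. NOTCH2 had 0 GGAC there, although 14 of the 20 residues of the NOTCH1 stretch were identical in NOTCH2, against 12 in NOTCH3. Peaks of both lists covered the whole stretch in NOTCH1 and in NOTCH3. In NOTCH2 the edge of a wide replicate 1 peak covered 45 of the 60 nt and no replicate 2 peak reached the stretch. The NOTCH1 summits of both lists lay in the stretch, and no NOTCH3 summit did. The nearest NOTCH3 summits were 8 nt away in replicate 1 and 174 nt away in replicate 2. The nearest NOTCH2 summits were 205 nt away in replicate 1 and 468 nt away in replicate 2.

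The ligand windows below hold the replicate 1 summits in the coding sequence (CDS) near the end of JAG1, JAG2 and DLL1, and show how the motifs sat around them. Each window extends 40 nt to either side of the summit, and all lie on the minus strand. They are chr20:10639562-10639642 in exon 26 of JAG1, chr14:105142711-105142791 in exon 26 of JAG2 and chr6:170283340-170283420 in exon 9 of DLL1.
JAG1: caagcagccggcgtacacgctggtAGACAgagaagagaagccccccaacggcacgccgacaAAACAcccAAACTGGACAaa
JAG2: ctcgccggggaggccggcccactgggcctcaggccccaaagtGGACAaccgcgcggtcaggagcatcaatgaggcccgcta
DLL1: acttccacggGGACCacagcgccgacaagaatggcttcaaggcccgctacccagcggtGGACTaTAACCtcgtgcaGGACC

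The JAG1 window held 4 DRACH and 1 GGAC, the JAG2 window 1 of each, and the DLL1 window 4 DRACH and 3 GGAC. The peaks with the largest fold enrichment lay in 3′ untranslated regions (UTRs), and the 29 nt around the GGAC nearest their replicate 1 summits are shown from chr1:119914967-119914995 (NOTCH2, minus strand) and chr14:105142153-105142181 (JAG2, minus strand).
NOTCH2: ttcttgcagcttGGACTgcattttaagcc
JAG2: cggtggtcggtgGGACCctggttattgat

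The adenine of this GGAC lay 8 nt before the summit in NOTCH2 and 25 nt before it in JAG2. Both sequences above were centred on a GGAC and so contain it by construction. The coding windows below were centred on replicate 1 summits of shared peaks in the long internal exon 25. They held 0 GGAC in NOTCH1 (chr9:136505715-136505795) and in NOTCH2 (chr1:119925509-119925589). The NOTCH1 exon 25 peak did not lack GGAC, since its stretch common to both lists held 3 in 227 nt. The nearest lay 63 nt past the replicate 1 summit, outside the window. In NOTCH2 exon 25 the common stretch held 0 GGAC in 195 nt.
NOTCH1: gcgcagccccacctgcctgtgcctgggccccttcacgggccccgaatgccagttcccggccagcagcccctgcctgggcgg
NOTCH2: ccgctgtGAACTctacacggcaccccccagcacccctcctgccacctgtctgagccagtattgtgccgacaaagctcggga

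Peaks were found in both lists on 3 receptors and on both Jagged ligands. An exonic summit was present in both lists for NOTCH1, NOTCH2, NOTCH3, JAG1 and JAG2, that is for 5 of the 10 genes, against 31.9% of all protein-coding genes. In replicate 1 alone, summits lay in DLL1, HES1 and HES4, 3 of 10, against 8.47% of protein-coding genes with a peak in that list and none in the other. NOTCH4 and HEY1 had no summit in either list. By list, 8 of 10 genes had an exonic summit in replicate 1 (40.4% of protein-coding genes) and 5 of 10 in replicate 2 (32.6%).

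The genes with peaks in both lists were the long ones. Of the 7 genes with 5000 bp of exon or more, 5 had a summit in both lists, against 44.9% of protein-coding genes of that length. NOTCH4 (9748 bp) and HEY1 (5487 bp) were the exceptions. These lengths merge the exons of all annotated transcripts of a gene. The HEY1 transcript used for exon numbers has only 2296 nt, fewer than the 3779 nt of DLL1, so its place among the long genes depends on this measure. Of the 3 shorter genes, DLL1 (3819 bp), HES1 (2059 bp) and HES4 (1118 bp), 0 had a summit in both lists, against 21.8% of protein-coding genes under 5000 bp. Gene length and role in the pathway cannot be told apart among so few genes.

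**Figure D1:**
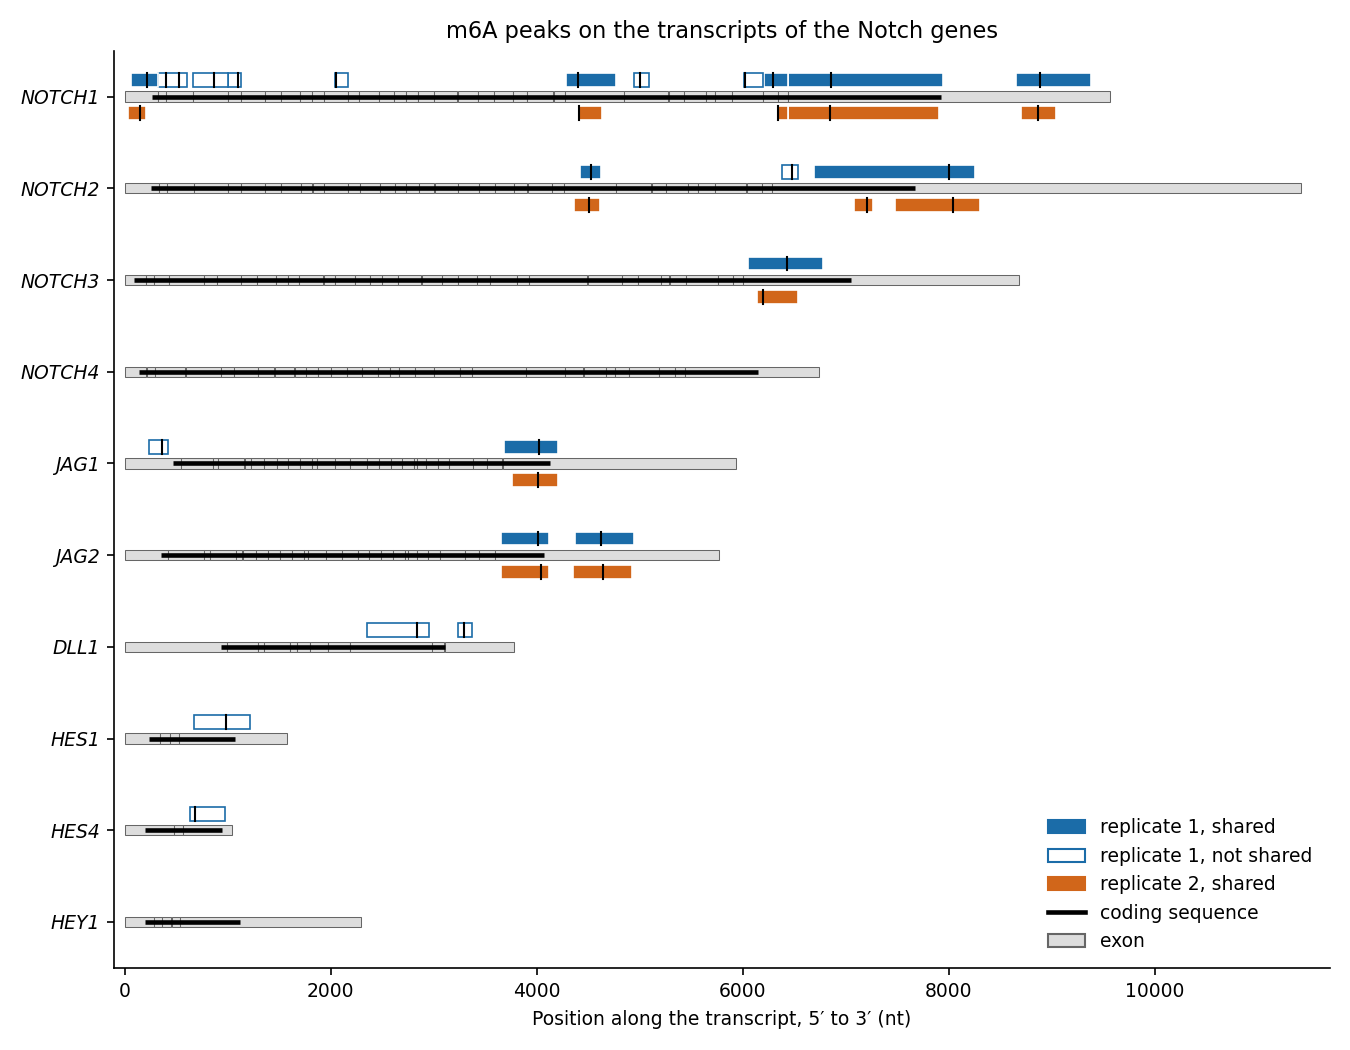
Exonic m6A peaks drawn along the transcript with the longest CDS of each of the 10 genes (x axis, position in nt from the 5′ end), with replicate 1 above and replicate 2 below the transcript, filled where the peak overlapped one of the other list, and black ticks at the summits. All 12 exonic peaks of replicate 2 are filled, and the peaks of NOTCH2, NOTCH3, JAG1 and JAG2 lie in the last exon at the 3′ end, apart from exon 25 of NOTCH2 and exon 1 of JAG1.

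NOTCH1, a receptor for Jagged and Delta ligands, carried 12 of the 24 peaks of replicate 1 and 5 of 12 exonic peaks in replicate 2. The gene (ENSG00000148400.13) spans chr9:136494433-136546048 on the minus strand, and its transcript has 34 exons. The highest peak lay in the last exon, which encodes the C-terminal part of the intracellular domain. It spanned 1517 bp at chr9:136496058-136497574 in replicate 1 and 1472 bp at chr9:136496095-136497566 in replicate 2. Its fold enrichment was 8.38 in replicate 1 (−log10 q 68.1) and 5.52 in replicate 2 (−log10 q 51.4). The summits fell in codon 2198 and codon 2195, 10 nt apart and 1073 and 1083 nt before the stop codon. The −log10 q of this peak was higher than that of 97.8% of exonic peaks in replicate 1 and of 94.3% in replicate 2, while its fold enrichment stood at the 79.4th and 60.6th percentile. The stretch common to both lists held 9 GGAC and 17 DRACH in 1464 nt of exon.

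The other 4 NOTCH1 peaks found in both lists were lower. The 3′ UTR peak, with summits 955 and 941 nt past the start of the stop codon, had a fold enrichment of 4.02 and 2.44 in replicates 1 and 2. The 5′ UTR peak in exon 1 had 2.95 and 2.27, and the GC content of the 101 nt around its summit was 84.2% in replicate 1. The peak in exon 25 (572 nt), with summits in codons 1381 and 1384, had 2.89 and 1.73 (−log10 q 8.39 and 1.84). All of these stood below the median fold enrichment of exonic peaks, which was 5.30 in replicate 1 and 4.82 in replicate 2.

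The peak in exon 32 (148 nt) had the smallest fold enrichment of the shared NOTCH1 peaks in replicate 1, 1.86, and was higher in replicate 2, 2.10. Its −log10 q was only 1.49 in replicate 1 and 1.79 in replicate 2, at the 1.06th and 1.91st percentile of exonic peaks. The replicate 2 summit of this peak lay 2 nt from a junction. The interval common to both lists ran over 267 bp, of which the last 5 nt of exon 32 and all of exon 33 were exon and the rest intron. The 7 peaks of NOTCH1 found in replicate 1 alone had their summits in coding parts of exons 2, 3, 4, 5, 11, 26 and 31. Their fold enrichment ran from 1.95 in exon 5 to 4.16 in exon 26 (−log10 q 15.1). The exon 26 peak was therefore higher than 4 of the 5 NOTCH1 peaks that replicate 2 also held. The −log10 q was 11.3 in exon 3 and 9.64 in exon 4. It was only 2.89 in exon 31, 2.08 in exon 11, 1.83 in exon 2 and 1.59 in exon 5. The exon 2 and exon 5 peaks spanned 268 and 246 bp over exons of 79 and 123 nt, so they also covered intron. The exon 2 summit lay 5 nt from a junction.

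NOTCH2, the paralog of NOTCH1 with 57.0% identical residues over the aligned codons, had the highest peak of all 10 genes in replicate 1, while JAG2 had it in replicate 2 (7.86). This gene (ENSG00000134250.21, chr1:119911553-120100779, minus strand) also has 34 exons, and the last one is 5142 nt long. The peak lay over the end of the CDS and the start of the 3′ UTR at chr1:119914725-119916283 in replicate 1, with a fold enrichment of 14.97 (−log10 q 41.8), above 97.1% of exonic peaks. In replicate 2 the region was split into 2 peaks. The one around the same summit, chr1:119914671-119915499, had 7.47 (−log10 q 22.3), above 81.5% of exonic peaks, and the one upstream in the CDS, with its summit in codon 2317, had 2.62. The main summits were 42 nt apart, at 335 and 377 nt past the start of the stop codon. The stretch common to both lists held 4 GGAC and 16 DRACH in 775 nt.

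A second NOTCH2 peak in both lists lay in the internal exon 25 (506 nt), and was the peak whose height differed least between the lists. Its fold enrichment was 4.68 in replicate 1 and 4.54 in replicate 2, with summits in codons 1423 and 1419. The part common to both lists held 0 GGAC and 1 DRACH in 195 nt. One coding peak of exon 34, with its summit in codon 2073, was found in replicate 1 alone (fold enrichment 3.52).

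Replicate 2 also held the only intronic peak of the 10 genes, chr1:120078485-120078811 in NOTCH2, with a fold enrichment of 5.61 and no partner in replicate 1. This peak lay upstream of exon 1 of the transcript used here (chr1:120069334-120069662), within the gene only through other annotated transcripts. Its sequence had 4 near-identical copies elsewhere on chromosome 1, each over 100% of its length and with 99.1% to 100% identity, and none of them in an annotated gene body. The other 36 peaks of the 10 genes had 0 copies at 97% identity over 50% of the peak or more. Reads from the copies with 100% identity cannot be told apart from reads of NOTCH2 by sequence, so the place of this peak is uncertain, and it was left out of the exonic counts.

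NOTCH3, a receptor known for its role in vascular smooth muscle, had 1 peak in each list, both in the last exon (exon 33, 2677 nt). The gene is ENSG00000074181.9 on the minus strand of chromosome 19. The fold enrichment was 2.76 at chr19:15160937-15161668 in replicate 1 and 2.38 at chr19:15161185-15161575 in replicate 2, both near the low end of all exonic peaks (10.5th and 7.12th percentile). The summits fell in codons 2114 and 2035, which is 238 nt apart, a distance larger than that of 93.9% of all exonic pairs. The summits of the other 10 pairs lay at most 60 nt apart. Both NOTCH3 peaks included the stretch shown above.

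The receptors differed at matching exons. The last exon, where the coding stretches shown above lie, held a summit in both lists for NOTCH1, NOTCH2 and NOTCH3, and in neither list for NOTCH4, whose last exon has 1308 nt. The long internal exon held a summit in both lists for NOTCH1 (exon 25) and NOTCH2 (exon 25), but not at aligned places. The NOTCH1 summits aligned with NOTCH2 codons 1372 and 1375, whereas the NOTCH2 summits lay in codons 1423 and 1419. The NOTCH1 peak of replicate 2 was also weak (fold enrichment 1.73, −log10 q 1.84). The matching exons of NOTCH3 (exon 24, 566 nt) and NOTCH4 (exon 21, 524 nt) held 0 summits in either list. NOTCH4, which is known mainly from endothelial cells, had 45.7% identical residues with NOTCH1 over the aligned codons. Expression of the receptors was not measured in these files.

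JAG1, a Jagged ligand that activates Notch receptors on adjacent cells, had its shared peak at the end of the CDS. The gene (ENSG00000101384.12, chromosome 20, minus strand) has 26 exons, and the peak lay in the last (2272 nt). The fold enrichment was 7.26 at chr20:10639412-10639942 in replicate 1 (−log10 q 61.6) and 4.78 at chr20:10639414-10639862 in replicate 2 (−log10 q 48.3). The summits were 4 nt apart, in codons 1185 and 1183, 102 and 106 nt before the stop codon, which was the smallest summit distance among the 11 pairs. The common stretch had 20 DRACH and 6 GGAC in 449 nt, the most DRACH of any pair. A second peak, in the 5′ UTR of exon 1, appeared only in replicate 1, where its fold enrichment was 2.17.

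JAG2, the other Jagged ligand, had 2 peaks in each list and all were shared. The gene is ENSG00000184916.9 on the minus strand of chromosome 14, and both peaks lay in its last exon (exon 26, 2176 nt). The 3′ UTR peak had a fold enrichment of 11.8 at chr14:105141819-105142393 in replicate 1 and 7.86 at chr14:105141842-105142416 in replicate 2. Its summits lay 555 and 570 nt past the start of the stop codon. The coding peak had 8.11 and 4.91, with summits 54 and 26 nt before the stop codon, in codons 1221 and 1230. The 3′ UTR peak was the higher one in both lists. JAG1 had no summit in its 3′ UTR in either list, where only the end of its coding peak reached. The JAG1 and JAG2 proteins had 55.6% identical residues over the aligned codons, and the 3′ UTRs were not aligned.

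DLL1, a Delta-like ligand, had 2 peaks, both in replicate 1 alone. The gene is ENSG00000198719.9 on the minus strand of chromosome 6. The fold enrichment was 7.14 at chr6:170283265-170283865 in exon 9 (799 nt), with its summit in codon 633, and 5.12 at chr6:170282609-170282749 in the 3′ UTR of exon 11. The exon 9 peak stood above 70.2% of exonic peaks of replicate 1, and replicate 2 held no peak there. It was the highest peak of the 10 genes without a partner.

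The targets had few peaks. HES1, a basic helix-loop-helix repressor (ENSG00000114315.4, chromosome 3, plus strand), had 1 peak in replicate 1 at chr3:194137833-194138378 in its last exon, with a fold enrichment of 3.44 (−log10 q 14.7) and the summit in codon 252, 86 nt before the stop codon. No GGAC and no DRACH lay within 50 nt of that summit. The whole peak of 546 bp held 4 GGAC and 9 DRACH, the nearest of each 60 nt past the summit. HES4, a related repressor (ENSG00000188290.11, chromosome 1, minus strand), had 1 peak in replicate 1 at chr1:999023-999369 in its last exon, with 3.13 (−log10 q 9.72) and the summit in codon 161. HEY1, a hairy-related repressor on chromosome 8 with a last exon of 1759 nt, had none in either list.

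**Figure D2:**
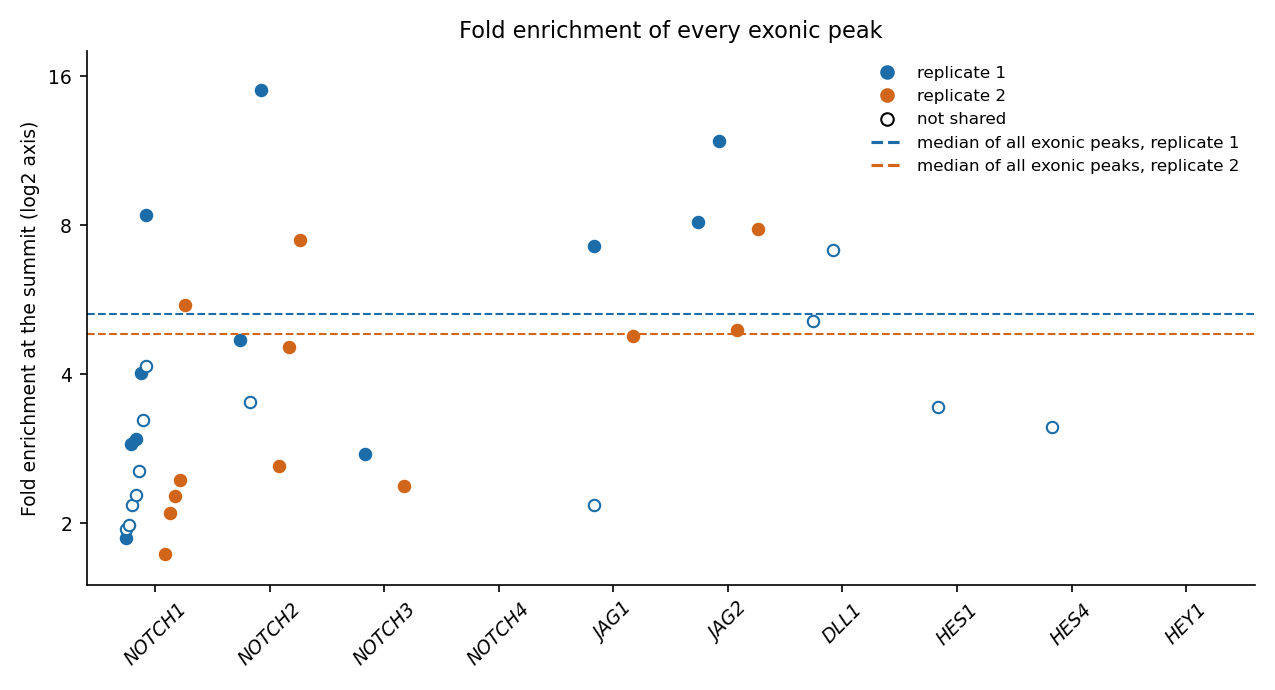
Fold enrichment of each exonic peak (y axis, log2 scale) by gene, for replicate 1 (blue) and replicate 2 (orange), with open circles for peaks without a partner in the other list and dashed lines at the median of all exonic peaks of each list (5.30 and 4.82). NOTCH2 and JAG2 hold the highest points, at 14.97 and 11.8 in replicate 1, and most NOTCH1 points lie below the lines.

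Taken over all 10 genes, the peaks were lower than exonic peaks in general, which rested on NOTCH1. The median fold enrichment was 3.34 in replicate 1 (24 peaks, quartiles 2.48 and 5.63) against 5.30, and 3.58 in replicate 2 (12 peaks) against 4.82. NOTCH1 supplied 12 and 5 of these peaks, and without it the medians were 4.90 (12 peaks) and 4.78 (7 peaks), near those of all exonic peaks. In replicate 1, the 11 peaks with a partner had a median of 4.68 and the 13 without one 3.13, and among all exonic peaks these medians were 6.54 and 4.05.

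The share of peaks with a partner in the other list was 11 of 24 in replicate 1 (45.8%, 95% Wilson confidence interval 27.9% to 64.9%) against 60.2% of all exonic peaks. In replicate 2 it was 12 of 12 (100%, interval 75.8% to 100%) against 95.0%. Both intervals include the share of all exonic peaks, cover counting error only and treat peaks of 1 gene as independent, which they are not.

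Peaks were paired across the lists where each was the other's largest overlap, which gave 11 pairs. The NOTCH2 exon 34 peak had the largest geometric mean fold enrichment (10.6), followed by the JAG2 3′ UTR peak (9.64) and the NOTCH1 coding peak of exon 34 (6.80), and the NOTCH1 exon 32 peak had the smallest (1.98). In 10 of the 11 pairs the replicate 1 value was the larger one, with NOTCH1 exon 32 as the exception. The median log2 ratio of replicate 1 to replicate 2 was 0.60, from −0.17 to 1.00 (NOTCH2 exon 34). Among all 11687 exonic pairs, 80.0% were higher in replicate 1 and the median was 0.43, so the direction was that of the lists as a whole. The summits of the 11 pairs lay a median of 15 nt apart, against 26 nt for all pairs.

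**Figure D3:**
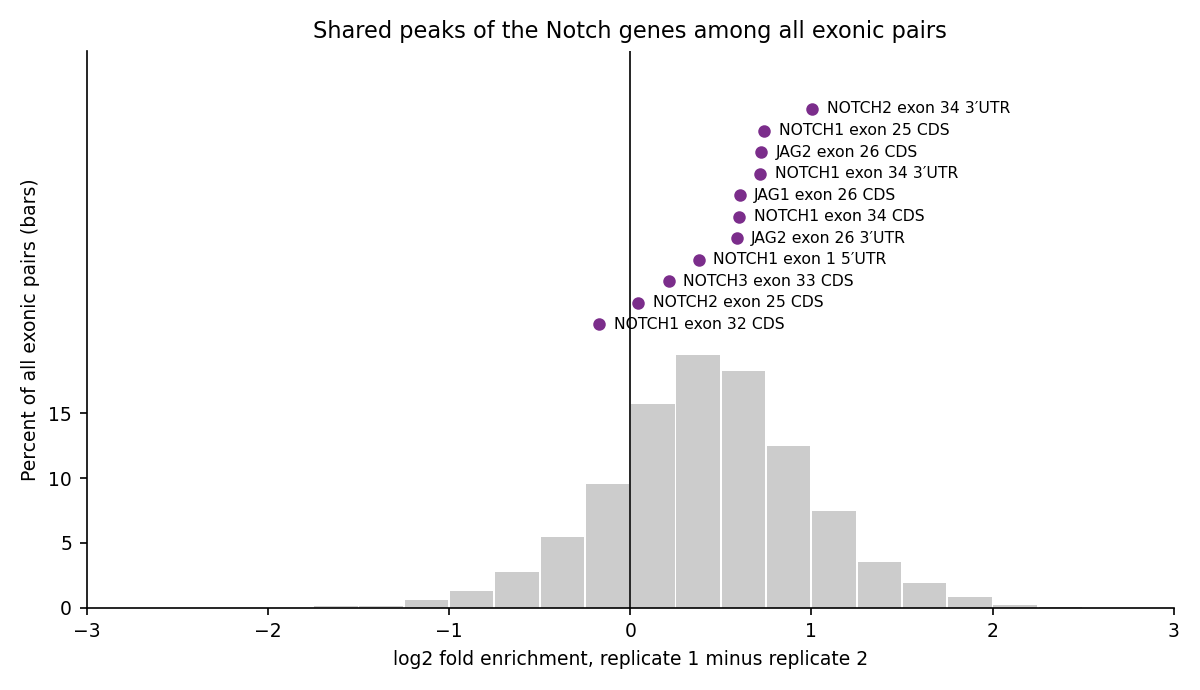
Log2 ratio of fold enrichment, replicate 1 minus replicate 2 (x axis), with grey bars for the percent of all 11687 exonic pairs in each bin and purple points for the 11 pairs of the Notch genes, whose height on the page serves only to separate their labels. The points lie between −0.17 and 1.00, 10 of them to the right of 0, within the range of the bars.

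Exons of 400 nt or more held most summits of the 10 genes, as they did for exonic summits in general. The 10 transcripts have 206 exons, of which 20 are 400 nt or longer and hold 46.6% of the nucleotides. These 20 exons held 16 of 24 summits in replicate 1, against 75.1% of all summits placed on a transcript, and 10 of 12 in replicate 2, against 88.9%. The median exon with a summit had 561 nt in replicate 1, against 1079 nt for all summits, and 2224 nt in replicate 2, against 1583 nt. Of the 186 shorter exons, 8 held a summit in replicate 1 and 2 in both lists, and all of these belonged to NOTCH1 (31 short exons). The 2 in both lists were exons 1 and 32, and the exon 32 peak had a q above 0.01 in each list. In replicate 1 the peaks of exons 2 and 5 also had a q above 0.01. Those of exons 1, 3, 4, 11 and 31 had a q below 0.01. For NOTCH2, NOTCH3, JAG1, JAG2, DLL1, HES1 and HES4, every exonic summit lay in an exon of 400 nt or more. The last exon held a summit in both lists for 5 of 5 genes with peaks in both. The same share over all genes with peaks in both lists is not given here, so this count is not read as a trait of the 5. Over the 10 genes, 11 of 24 and 8 of 12 summits lay in the last exon, against 50.5% and 59.4% of all summits placed on a transcript.

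**Figure D4:**
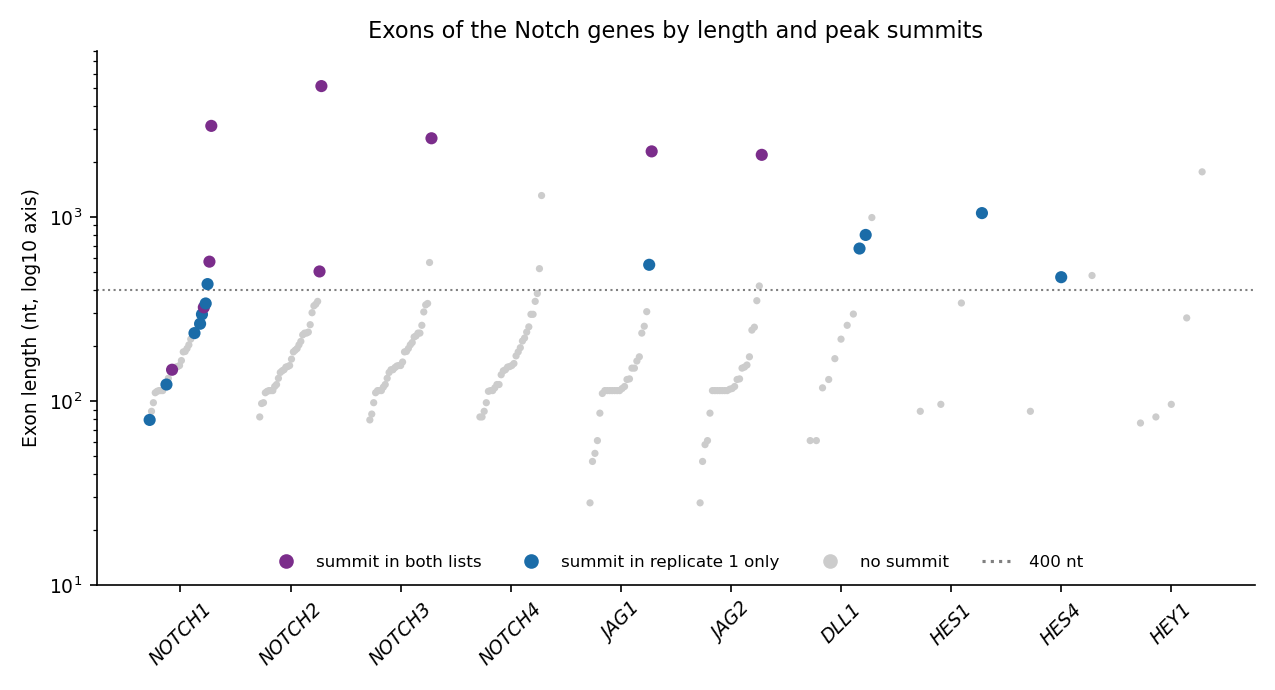
Length of every exon of the 10 genes (y axis, nt, log10 scale), with large purple points for exons with a summit in both lists, blue points for exons with a summit in replicate 1 alone and small grey points for exons without one, and a dotted line at 400 nt. Below the line, colored points are seen for NOTCH1 alone, 8 of its 31 short exons.

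By region, with a window of 200 nt on either side of the stop codon set apart, 15 of 24 summits in replicate 1 lay in the CDS outside the window (62.5%, against 49.3% of all summits placed on a transcript). The window held 4 (16.7%, against 24.5%), the rest of the 3′ UTR 3 (12.5%, against 17.4%) and the 5′ UTR 2. In replicate 2, 6 of 12 lay in the CDS, against 48.1% of all, 2 in the window, 3 in the rest of the 3′ UTR and 1 in the 5′ UTR. The larger CDS share of replicate 1 included the 7 NOTCH1 peaks without a partner, since all had their summits in the CDS.

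GGAC was found within 50 nt of 17 of 24 summits in replicate 1 (70.8%, against 49.7% of all exonic summits) and of 7 of 12 in replicate 2 (58.3%, against 51.5%). The longer TGGAC, as in the JAG1 window above, lay near 9 of 24 in replicate 1 (37.5%, against 18.9%) and 3 of 12 in replicate 2 (against 20.1%). The broader DRACH lay near 19 and 11 (79.2% and 91.7%, against 85.7% and 88.9%). These windows were rich in G and C, with a median GC content of 66.3% in replicate 1 and 65.4% in replicate 2, against 58.4% and 56.4% for all exonic summits. The part of GC content in these shares was not tested, and a motif near a summit is a description, not a methylated site. All motifs were searched on the strand of the gene in the genomic sequence, and every TGGAC contains GGAC. Over both lists, GGAC lay near 24 of 36 summits, near 31 with a window of 100 nt and near 9 with 25 nt. With peak midpoints in place of summits it lay near 16. Shares over all exonic summits are given only for the window of 50 nt around summits, so the difference is described for that setting alone.

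Beyond the 10 genes, 61 other genes of the pathway were counted by role. Of these, 38 had an exonic summit in both lists (62.3%, against 31.9% of protein-coding genes), 4 in replicate 1 alone, 1 in replicate 2 alone and 18 in neither. The 61 genes had a median of 5768 bp of exon, and 44.9% of protein-coding genes of 5000 bp or more had peaks in both lists. The shares were 1 of 4 other ligands, 6 of 9 genes of ligand and receptor glycosylation and endocytosis, 6 of 9 of receptor cleavage, 7 of 9 of the nuclear activation complex, 9 of 13 corepressors, 6 of 10 turnover factors and inhibitors, and 3 of 7 other HES and HEY factors.

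For 6 of the roles, the gene with the highest shared peak is given with its fold enrichment in replicates 1 and 2. FBXW7, the ubiquitin ligase subunit that marks the Notch intracellular domain for degradation, had 22.24 and 17.01 in coding exon 2 (570 nt). RBPJ, the DNA-binding partner of the intracellular domain, had 17.9 and 14.5 in the 3′ UTR of its last exon. Both peaks were higher in both lists than any peak of the 10 genes.

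SPEN, an RBPJ corepressor, had 9.67 and 12.5, and was the one among these 6 genes with the higher value in replicate 2. NEURL1B, a ubiquitin ligase of Notch ligands, had 15.5 and 7.16. HES2, a HES family repressor, had 13.98 and 9.07. DLL4, a Delta-like ligand, had 6.72 and 5.63 in coding exon 9 (703 nt), and the higher of the DLL1 peaks of replicate 1 also lay in exon 9.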

How the data were processed

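The analysis used 1 list of m6A peaks for each of 2 IP samples of OE-19 cells. Groups came from the sample labels, and the 2 input samples entered no comparison. The methods describe DNase treatment and fragmentation of total RNA ahead of the pulldown, whereas the labels describe UV-fixed, lysed cells. The methods name TopHat2 for mapping to hg38 and MACS2 with default settings for peaks, whereas the submitters' processing notes name fastp, HISAT2 and MACS2. Releases are not given in the sources used here, nor is whether the input served as control. Which mapper made the lists can change how reads at splice junctions and in copies were placed.

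The deposited columns hold a fold enrichment (a ratio taken at the summit), −log10 p-value, −log10 q-value, a score, and the offset of the summit from the peak start, all written by the authors' peak caller. The score and the p-value were not used. The highest q was 0.0491 and 0.0497, so both lists end at 0.05. All 44 and 53 chromosome and contig names matched hg38, and 0 peaks ran past a chromosome end.

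Summits were placed on GENCODE version 44 exons, with 1-based coordinates. The lists carry no strand. Regions, exon numbers and codons refer to the transcript with the longest CDS. A peak was shared when it overlapped a peak of the other list by at least 1 bp. Percentiles are ranks among the exonic peaks or pairs of the same list. Coding sequences were aligned as proteins with BLOSUM62, with gap costs of 11 and 1. Copies of peaks were searched with blastn 2.17.0. All 10 genes were named with every peak, and for each pathway role the gene was named whose shared exonic peak had the largest geometric mean of both fold enrichments, and the gene of 1 role is not reported here. The genes, lists and alternatives were chosen with earlier results of these data known. Functions were checked on simulated peaks. Python 3.11.15, numpy 2.4.6, pandas 2.3.3, scipy 1.17.1, pysam 0.24.0, Biopython 1.88 and matplotlib 3.10.9 were used.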

Additional observations from a re-analysis of the deposited data

How the results depend on the processing

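Of 70 alternative values, 49 stayed within 1.5 times the reported count, within the spread between the lists or pairs or, for shares, within the confidence interval, 21 moved further and 0 reversed. The number of the 10 genes with an exonic summit in both lists was 5 in all settings but q of 1e-05 or less, which left 4 without NOTCH3, a fold enrichment of 5 or more, which left 3, and single lists, which gave 5 to 8. With the fold enrichment minimum, 7 exonic peaks of replicate 1 (median fold enrichment 8.11) and 3 of replicate 2 (7.47) remained. Of these 10 summits, 3 lay in the CDS and 9 had GGAC, and the pathway count fell from 38 to 23. With q of 1e-05 or less, 7 peaks of replicate 2 were left and the medians were 4.02 and 4.92. CDS summits in both lists together then numbered 11 of 24 instead of 21 of 36. Summits with GGAC numbered 15 of 24 instead of 24 of 36. With q of 0.01 or less the medians were 3.52 and 4.66, and with an equal number of peaks in each list the replicate 1 median was 4.02. Requiring 50% of both peaks to overlap lowered the shared part from 45.8% to 29.2% in replicate 1 and from 100% to 58.3% in replicate 2. A motif window of 25 nt left 9 of 36 summits with GGAC, and peak midpoints in place of summits 16 of 36. Shares over all exonic summits at these settings are not given here. Without NOTCH1, a setting added after seeing the data, the median fold enrichment was 4.90 and 4.78. In replicate 1 alone, CDS summits numbered 15 of 24 and summits with GGAC 17 of 24. In replicate 2 alone they numbered 6 of 12 and 7 of 12. No paired analysis was possible because peaks of the input samples were not analysed here. The lists hold no read numbers, so a missing peak is not a missing modification.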
